A study of Mus musculus with 4 samples.

Results

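The 10 genes described here encode enzymes that break down cartilage matrix and the inhibitors that hold them in check: the matrix metalloproteinases Mmp2, Mmp3, Mmp9, Mmp13 and Mmp14, the aggrecan-cleaving proteases Adamts1, Adamts4 and Adamts5, and the tissue inhibitors Timp2 and Timp3. They were chosen by name, as 10 of 22225 protein-coding genes. Open chromatin was measured by ATAC-Seq, in which the Tn5 transposase cuts accessible DNA, in primary chondrocytes from mouse rib cartilage. There were 4 libraries. Cho replicates 1 and 2 were primary chondrocytes whose labels give no genotype. WT carried both Sox9 enhancers, E160 and E308, and the deletion library lacked E160 and E308 on both alleles. Per the study methods, chondrocytes came from newborn mice after collagenase digestion, and the mutants were made by CRISPR/Cas9 in C57BL/6J embryos and compared with littermates. WT and the deletion had 1 library each, so setting one beside the other compares 2 libraries, without replicate error and without p-values. Where 4 values stand together, their order is Cho replicate 1, Cho replicate 2, WT, deletion, and where 3 stand together Cho replicate 1 is left out. In a bulk library, fewer cells of a type and less open chromatin per cell cannot be told apart.

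Aggrecan and type II collagen give cartilage its resistance to load. Adamts4 and Adamts5 cut the aggrecan core protein, Mmp13 cuts fibrillar collagen, and Mmp2, Mmp3 and Mmp9 act on further matrix proteins and on denatured collagen. Mmp14 sits in the cell membrane and activates the Mmp2 precursor together with Timp2, whereas Timp3 binds to matrix and inhibits the aggrecanases as well as metalloproteinases. Mmp13 is a marker of hypertrophic chondrocytes, and Mmp9 is best known from osteoclasts and the growth plate border.

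The libraries differed in depth. The peak lists held 76242, 148330, 90971 and 169591 peaks, and depths of 6841, 20817, 4622 and 8697 tags per Mb of genome were read from the background pileups. Values in a list move with its depth, and positions are in kb or bp from the annotated start, negative upstream. The labels and methods name mm9 (NCBIM37) for all lists, but Cho replicate 2 was read with GRCm38 positions, which is an inference from the file: 325 of its peaks ended past the end of an NCBIM37 chromosome, and 62.7% of genes had a promoter peak with GRCm38 positions against 16.7% with NCBIM37 positions. Every position of Cho replicate 2 rests on it. E308 held peaks of up to 15.4-fold enrichment in WT and 1 peak of 3.08-fold in the deletion, and E160 held peaks of up to 13.4-fold in WT and none in the deletion. Of 13 chondrocyte genes, 7, 12, 12 and 12 had a promoter peak, with Sox9 and Col2a1 in all 4 lists and Comp in none. Acan, Col9a1, Col11a2, Matn1 and Sox5 were missing from Cho replicate 1 only. Of 5 fibroblast and osteoblast genes, 3, 5, 4 and 5 had a promoter peak. Of 6 macrophage and osteoclast genes found in both annotations, 1, 2, 1 and 2 had one, which was Ctsk in every list and Cd68 in Cho replicate 2 and the deletion. The endothelial list gave 3, 2, 3 and 3 of 4 genes and the skeletal muscle list 0, 1, 1 and 2 of 5. Over all genes, 55.3%, 62.7%, 59.0% and 64.7% had a promoter peak.

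The sequences that matter most for what follows are the upstream regions of Mmp13 and Mmp3, whose promoter peaks were low in pileup or missing from most lists. The others are the summit sequences of distal peaks called in all 4 lists or, for Timp2, the strongest in WT. The Mmp13 and Mmp3 sequences are the 150 bases before the RefSeq start, on the coding strand, in GRCm38 (chr9:7272364-7272513 and chr9:7445672-7445821, + strand), where the start has the same position as in NCBIM37. The other sequences are the 101 bases around the WT summit in NCBIM37, written on the strand of the gene. They lie at chr16:85756553-85756653 (- strand, 46.76 kb downstream of the Adamts1 start, intergenic), chr16:85950704-85950804 (- strand, -49.38 kb from the Adamts5 start, intergenic), chr8:95371372-95371472 (+ strand, in a Mmp2 intron) and chr11:118241071-118241171 (- strand, -24.07 kb from the Timp2 start, intergenic). Capitals mark matches to the AP-1 motif TGANTCA or to the Runx motif TGTGGT on either strand.
Mmp13 upstream region: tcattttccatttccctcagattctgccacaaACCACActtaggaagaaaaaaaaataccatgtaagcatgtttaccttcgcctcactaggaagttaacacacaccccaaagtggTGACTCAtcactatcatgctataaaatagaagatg
Mmp3 upstream region: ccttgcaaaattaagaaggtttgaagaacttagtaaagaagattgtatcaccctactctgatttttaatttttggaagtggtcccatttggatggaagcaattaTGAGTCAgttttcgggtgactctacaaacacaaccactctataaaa
Adamts1 +46.76 kb: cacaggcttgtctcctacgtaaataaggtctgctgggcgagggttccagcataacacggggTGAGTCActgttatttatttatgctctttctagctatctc
Adamts5 -49.38 kb: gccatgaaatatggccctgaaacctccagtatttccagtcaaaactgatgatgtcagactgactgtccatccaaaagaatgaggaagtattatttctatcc
Mmp2 +20.2 kb: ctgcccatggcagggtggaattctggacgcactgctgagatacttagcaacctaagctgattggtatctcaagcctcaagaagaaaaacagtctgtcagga
Timp2 -24.07 kb: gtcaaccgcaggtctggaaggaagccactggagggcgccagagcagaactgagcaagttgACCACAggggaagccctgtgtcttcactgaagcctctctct

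An AP-1 match began at position -35 from the Mmp13 start and at -46 from the Mmp3 start, and a Runx match at -118 from the Mmp13 start. In a window of 300 bases that runs from upstream of the start to 50 bases inside the gene, the AP-1 motif occurred in 6.92% of all promoters and, among the 10 genes, in Mmp3 and Mmp13. The Runx motif occurred in 15.2% of all promoters and in Mmp13 and Mmp14, and the Sox motif ACAAAG, searched on both strands, in 17.6% of all promoters and in Adamts1 and Adamts5. A match describes letters in a window and is not evidence of binding.

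The promoters ranged from open to weakly open or closed, with no limit set between them. A promoter peak, meaning a summit within 1 kb of the annotated start, was found for 9 of 10 genes in the Cho replicate 1 list (55.3% of all genes), and for 8 of 10 in each of the lists of Cho replicate 2 (62.7%), WT (59.0%) and the deletion (64.7%). Mmp2, Mmp13, Mmp14, Adamts1, Adamts4, Adamts5, Timp2 and Timp3 had one in every list, Mmp3 in Cho replicate 1 only, and Mmp9 in no list. Fold enrichment at a summit is the ratio of its pileup to the background, with 1 added to each, and in 3 lists the background is a local one. The added 1 lowers it most where the background is small, as in WT, so it is below the pileup over background. A pileup is the number of reads that cover the summit, and it was also divided by the background of the whole library. The members with a peak had median fold enrichments of 10.1, 7.75, 7.97 and 7.92, against medians of 12.2, 17.7, 12.7 and 12.4 over all promoters with a peak. Their median pileups over library background were 16.8, 38.1, 72.1 and 62.3, against 20.5, 67.5, 80.4 and 65.5 over all promoters. At each of the 8 shared promoters this value was lowest in Cho replicate 1. The smallest peak width, used to turn background pileup into depth, was 200, 94, 78 and 72 bp. The lists were thus not built alike, and pileups over background of different lists are not strictly on a common scale. What this adds to the differences between lists was not tested.

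**Figure D1:**
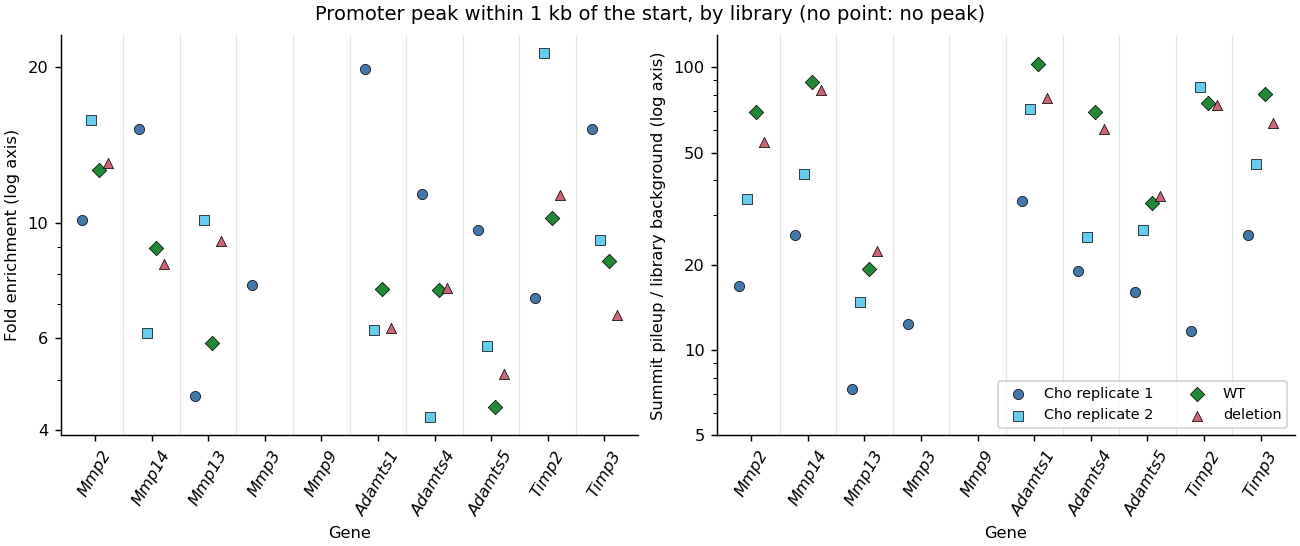
Promoter peaks of the 10 genes in the 4 libraries, as fold enrichment (left, log axis) and as summit pileup divided by the library background (right, log axis). A missing point means that no summit lay within 1 kb of the start. Mmp13 is the lowest gene in WT, the deletion and both Cho replicates on the right. On the left it is the lowest in Cho replicate 1 only, and above Adamts5 in WT. In Cho replicate 2 and the deletion it is there above Mmp14, Adamts1, Adamts4, Adamts5 and Timp3.

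Among the collagenases and stromelysins, Mmp13 was weakly open in every library by pileup over library background. By fold enrichment it stood above the member medians of Cho replicate 2 (7.75) and the deletion (7.92). Its fold enrichments were 4.65, 10.1, 5.88 and 9.22, from summit pileups of 10, 29, 7 and 14 reads. The Cho mean was 7.40 ± 3.89 (SD, n = 2), and by fold enrichment the WT and deletion values lay between the Cho replicates. Summits lay at +40, -56, -38 and -57 bp from the start, near the AP-1 match printed above. The pileup over library background was 7.31, 14.8, 19.4 and 22.4, at percentiles 8.57, 10.4, 4.17 and 12.3 of all promoters with a peak. By this value WT and the deletion lay above both Cho replicates. The local background around the Mmp13 summit equalled the library background in the 3 lists that have one.

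Mmp3, the stromelysin that cleaves aggrecan and activates other metalloproteinases, had a promoter peak in Cho replicate 1 only. That summit lay at -91 bp, had a pileup of 17 reads and a fold enrichment of 7.60. Cho replicate 2 was the deepest library and had no summit closer than 59.0 kb from the start. In WT and the deletion, no peak lay in the whole locus, defined as the gene body plus 50 kb on each side. The neighbouring matrix metalloproteinases of this cluster on chromosome 9 were also mostly closed: Mmp1a, Mmp7, Mmp8, Mmp10, Mmp12 and Mmp20 had no promoter peak in any list, Mmp1b had one in Cho replicate 1 only and Mmp27 in Cho replicate 2 and the deletion.

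Mmp9, a gelatinase, had no summit within 1 kb of its start. The nearest lay at -1901 bp in WT, -1959 bp in the deletion and -1468 bp in Cho replicate 2. RefSeq places the Mmp9 start 454 bp from the GENCODE start, and the Cho replicate 2 summit lay at -1922 bp from the latter, next to the other two. This upstream peak had fold enrichments of 14.1 (Cho replicate 2), 8.05 (WT) and 11.2 (deletion) and was absent from Cho replicate 1. The strongest distal WT peak of Mmp9 lay in an exon 12.63 kb inside the gene (chr2:164778663-164778990, NCBIM37), with fold enrichments of 4.65, 28.6, 15.5 and 15.8. It was called in all 4 lists, unlike the upstream peak. GENCODE also lists shorter Mmp9 transcripts that start inside the gene. When the start of any transcript was allowed, this peak counted as a promoter peak of Mmp9, and the members with one became 10 of 10 in Cho replicate 1 and 9 of 10 in WT and in the deletion.

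Mmp2 and Mmp14, the gelatinase and its membrane-bound activator, were open in every library. Mmp2 had fold enrichments of 10.1, 15.8, 12.7 and 13.1 (Cho 13.0 ± 4.01, SD, n = 2), with summits 18 to 89 bp after the start. Mmp14 had 15.2, 6.14, 8.96 and 8.33 (Cho 10.7 ± 6.41), with summits 6 to 128 bp before it. Mmp14 was therefore higher than Mmp2 in Cho replicate 1 and lower in the other lists by fold enrichment, whereas by pileup over library background it was higher in all 4 (25.6, 41.9, 88.8 and 83.0 against 16.8, 34.2, 69.3 and 54.3).

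The aggrecanases had a promoter peak in every list, and the position of their strongest summit varied most at Adamts5. Adamts1 had fold enrichments of 19.8, 6.22, 7.48 and 6.30 (Cho 13.0 ± 9.63) with summits 56 bp before to 27 bp after the start. Its pileup over library background of 33.6, 71.5, 102.6 and 78.3 was the highest of the members in Cho replicate 1 and WT. Adamts4 had fold enrichments of 11.4, 4.23, 7.42 and 7.51 (Cho 7.82 ± 5.07). Adamts5, the main aggrecanase of mouse cartilage, had 9.71, 5.80, 4.43 and 5.12 (Cho 7.75 ± 2.77) and a pileup over library background of 16.1, 26.6, 33.3 and 35.1. The strongest Adamts5 summit lay at -485, -675 and -666 bp in Cho replicate 1, Cho replicate 2 and the deletion, but at -6 bp in WT. Cho replicate 2 and the deletion each had 3 summits within 1 kb of the Adamts5 start and WT had 1, so the Adamts5 ratio between WT and the deletion sets different summits beside each other.

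Both inhibitors were open in every library. Timp2 had fold enrichments of 7.18, 21.2, 10.3 and 11.3 (Cho 14.2 ± 9.94) and Timp3 15.2, 9.27, 8.45 and 6.66 (Cho 12.2 ± 4.196). The annotated Timp2 start differs between the builds (-329 bp). Measured from the GENCODE start, the Timp2 summits lay at +249, +368, +379 and +367 bp. By fold enrichment the Cho replicates differed by more than 2-fold for Mmp13, Mmp14, Adamts1, Adamts4 and Timp2. Mmp2, Mmp13 and Timp2 were higher in Cho replicate 2 and the other 5 shared promoters in Cho replicate 1. Cho replicate 1 was called against a constant background and Cho replicate 2 against a local one. These differences and SDs are therefore not replicate spread alone. By pileup over library background every shared promoter was higher in Cho replicate 2.

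Mmp3, Mmp9 and Mmp13, with absent or low promoter peaks, had CpG-poor promoters, but the order of the members by CpG content was not their order by openness. The ratio of observed to expected CpG, over 500 bp on each side of the start, was 0.111 for Mmp13, 0.119 for Mmp3, 0.135 for Adamts4 and 0.217 for Mmp9. It was 0.475 for Mmp2, 0.547 for Timp2, 0.634 for Mmp14, 0.663 for Timp3, 0.67 for Adamts1 and 0.70 for Adamts5. Over all genes, 94.8% of promoters with a ratio of at least 0.6 had a WT peak, against 28.9% of promoters below 0.6. The CpG-poor promoter of Adamts4 carried a WT pileup of 69.3 times the library background, equal to that of Mmp2. Adamts5, with the highest CpG ratio of the members, had the lowest WT fold enrichment of them (4.43) and a WT pileup of 33.3 times the library background, above that of Mmp13 alone.

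Fold enrichment and pileup ranked the promoters differently, as fold enrichment sets the pileup against the local background. The local background was 11.1, 11.3 and 11.1 times the library background at Adamts1, at percentiles 97.2, 97.9 and 98.1 of all promoters with a peak. It was 6.40, 7.44 and 8.57 times at Mmp14, and 1.69, 2.92 and 2.68 times at Mmp2. The medians of the members were 4.31, 6.16 and 6.13 times, against 3.21, 3.35 and 3.29 times over all promoters. Cho replicate 1 was called against a constant background, so it has no local value, and its fold enrichments for Adamts1, Mmp14, Adamts4, Adamts5 and Timp3 were above those of the other lists.

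**Figure D2:**
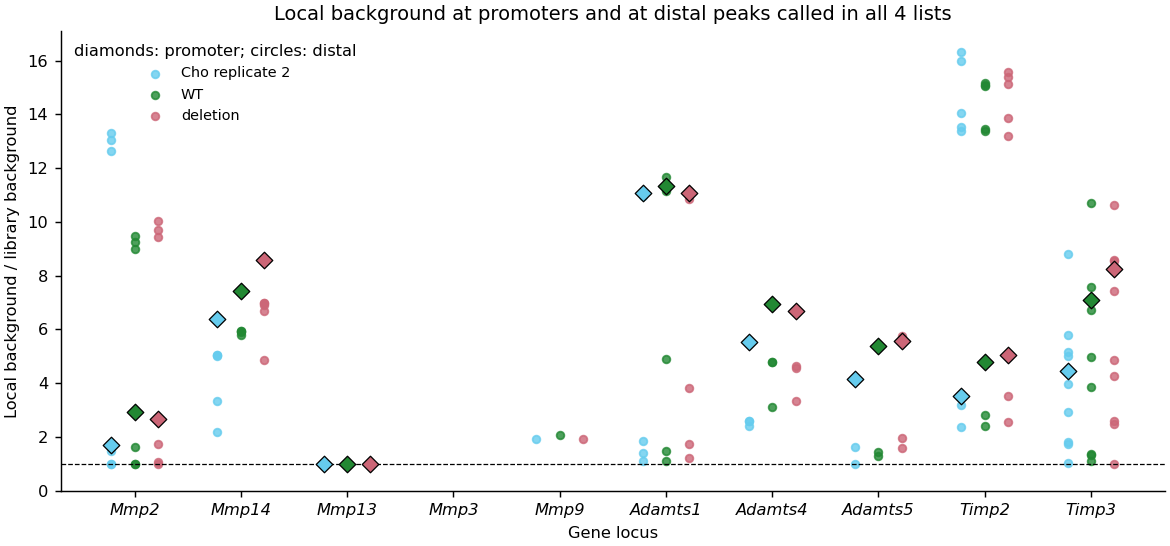
Local background divided by library background (vertical axis, no unit) at promoter peaks (diamonds) and at distal peaks called in all 4 lists (circles), for the 3 libraries called with a local background. The dashed line marks a local background equal to that of the library. Distal peaks near Timp2 reach 13 to 16 times, and Mmp2, Adamts1 and Timp3 include peaks above 8 times.

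A raised local background was also seen at distal peaks, though in part next to a promoter. Of 78 distal WT peaks in the loci, 15 (19.2%) had a local background of at least 8 times the library background, against 2.41% of all distal WT peaks. In the deletion, 21 of 147 (14.3%) did, against 1.71% of all. The limit of 8 was chosen after the values were seen, and neighbouring peaks share the window from which the local background is taken. These peaks lay near 4 genes: 6 of 15 distal WT peaks of Timp2, 4 of 8 of Adamts1, 3 of 12 of Mmp2 and 2 of 15 of Timp3. The 4 of Adamts1 lay between -1.32 and +2.25 kb from its start, beside a promoter with a local background of 11.3 times in WT. No distal WT peak of Mmp9, Mmp14, Adamts4 or Adamts5 reached the limit.

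In Mmp2 the cluster lay in introns, 20.2, 22.1 and 23.06 kb after the start. The pileup over library background at 20.2 kb (chr8:95371250-95371594) was 90.6, 86.4, 130.4 and 100.6, above that of the Mmp2 promoter in all 4. Its fold enrichments were 52.8, 6.62, 11.3 and 9.27, so that the value of Cho replicate 1, with its constant background, stood far above the rest. At 23.06 kb the pileup was 9.50, 182.4, 111 and 79.8 times the library background, lowest in Cho replicate 1.

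In Timp2 the peaks formed an upstream group at -5.56, -7.64 and -9.54 kb and an intronic pair at +28.05 and +31.03 kb. At -7.64 kb (chr11:118224312-118224828) the fold enrichments were 26.6, 10.2, 7.29 and 6.21, with a local background of 13.5, 15.1 and 15.4 times. At +28.05 kb (chr11:118188388-118189278) they were 19.4, 12.2, 7.87 and 7.02, with a local background of 16.3, 13.4 and 13.2 times. The pileup over library background at -7.64 kb was 128 in WT and 104 in the deletion, above the promoter values of 74.9 and 73.5.

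In Adamts1 the peaks lay on both sides of the start, at -1.32 kb and, in the gene, at +2.25 kb (chr16:85800983-85801250), with fold enrichments of 27.9, 12.6, 7.29 and 7.39 at the latter. In Timp3 the intronic peak at +10.37 kb (chr10:85773316-85773605) had fold enrichments of 25.8, 21.0, 8.24 and 7.84, and a local background of 5.02, 10.7 and 10.6 times.

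**Figure D3:**
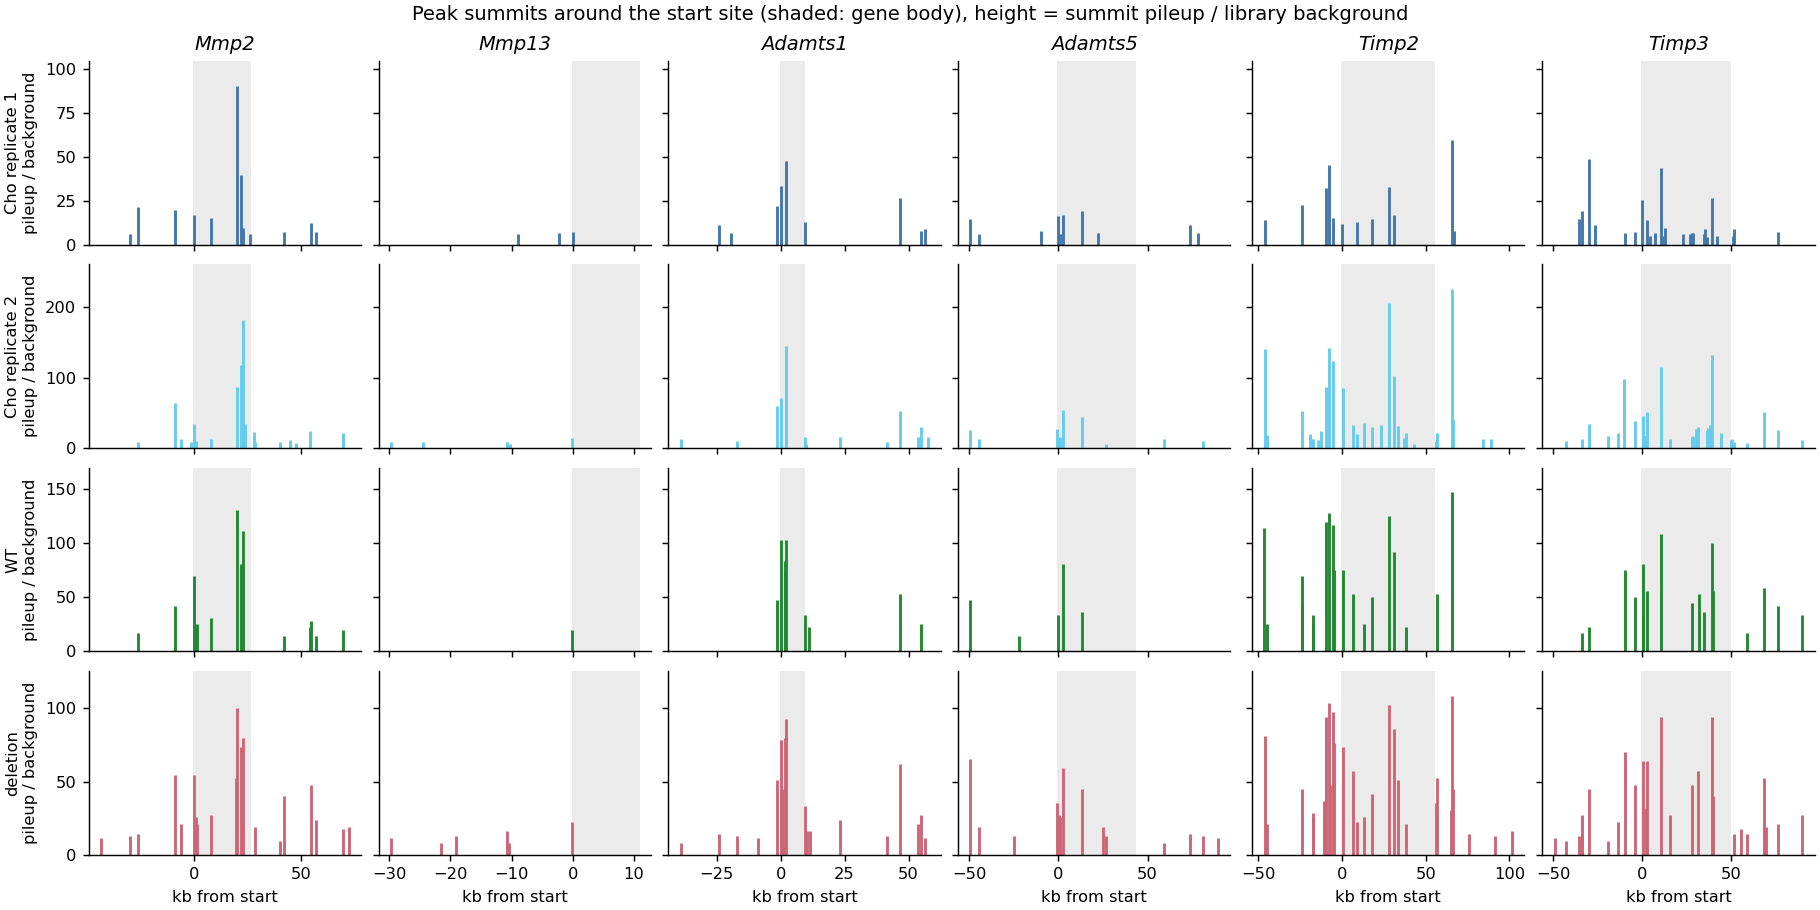
Peak summits in 6 of the loci (columns) in the 4 libraries (rows). The horizontal axis is the distance from the start in kb, positive in the direction of transcription, the height is the summit pileup divided by the library background (scale set per row), and the gene body is shaded. Mmp13 has few, low peaks in every row, while the intronic cluster of Mmp2 and the upstream and intronic groups of Timp2 recur in all 4.

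The loci together held 97, 163, 111 and 190 peaks. Between genes the WT number ran from 0 (Mmp3) and 1 (Mmp13) through 5 (Adamts5), 9 (Adamts1), 12 (Mmp9), 14 (Mmp2), 16 (Mmp14) and 17 (Timp3) to 18 (Adamts4) and 19 (Timp2). In peaks per 100 kb the member median was 7.996, 14.7, 10.8 and 17.0, against medians of 4.28, 8.76, 5.71 and 10.2 over the loci of all genes. In the Adamts4, Mmp9 and Mmp14 loci, 8 of 18, 5 of 12 and 6 of 16 WT peaks lay at promoters of other genes. The Adamts1 and Adamts5 starts are 98.0 kb apart, and their loci overlap by 44.94 kb, with 2, 2, 0 and 4 peaks counted for both.

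**Figure D4:**
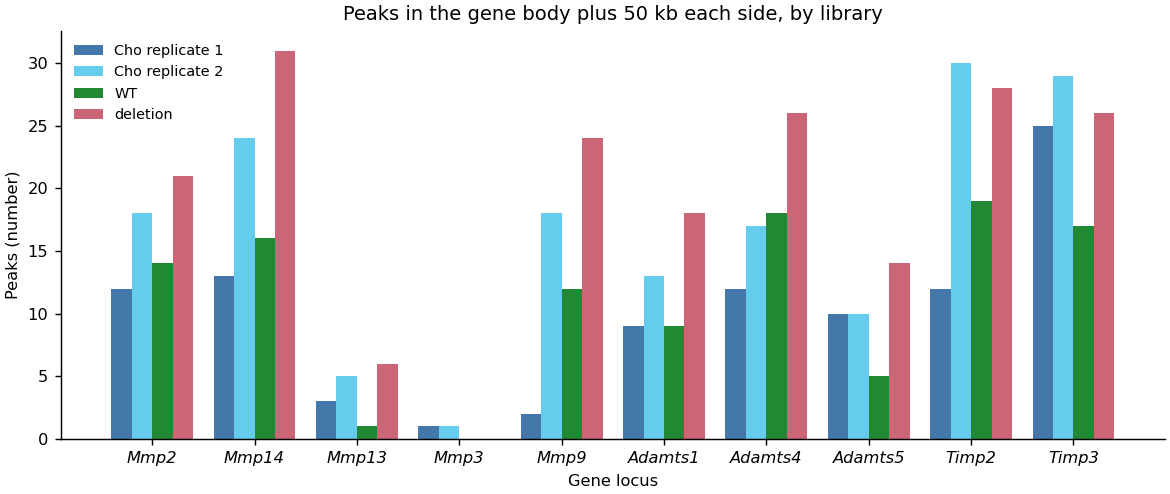
Number of peaks in the gene body plus 50 kb on each side (vertical axis) for each of the 10 genes, by library. The deletion bar is above the WT bar in 9 loci, and Mmp3 has no peak in either.

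The locus of Mmp13 held 3, 5, 1 and 6 peaks. In WT the only peak was the promoter. The promoter had the highest fold enrichment of the locus in every list, and no distal peak was called in all 4 lists.

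Of the 78 distal WT peaks, 43 lay in introns, 7 in exons and 28 between genes. In Cho replicate 1, 50 of 78 (64.1%, 95% exact binomial interval 52.4 to 74.7) overlapped a peak, against 50.4% of all distal WT peaks. In Cho replicate 2, 39 of 78 had a summit at the same distance from the annotated start within 200 bp, and 60 of 78 at the same distance from a promoter sequence found in both builds, which corrects for starts that moved between annotations. With the latter measure, 39 of 78 were called in all 4 lists, 31 in 3 lists, 5 in 2 and 3 in WT only. The shared sequences were found for the members alone, so no share over all distal WT peaks stands beside the matches in Cho replicate 2, and these counts describe the members only. The interval for Cho replicate 1 covers counting error only and treats the peaks as independent. Neighbouring WT peaks can overlap the same wide Cho replicate 1 peak, as those at +1.54, +1.78 and +2.25 kb in Adamts1 did. The interval can therefore be too narrow.

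Outside the domains of raised background, the intergenic peak 46.76 kb downstream of Adamts1 had fold enrichments of 15.6, 22.8, 13.0 and 19.2, with a local background of 1.84, 1.49 and 1.74 times. It is the peak whose sequence holds the AP-1 match shown above. The intergenic peak at -49.38 kb from Adamts5 had 8.87, 17.6, 12.3 and 21.1, and the intronic peak 2.50 kb inside Adamts5 had 10.1, 11.5, 10.2 and 8.25. Both Adamts5 peaks were called in all 4 lists and were stronger in WT than the Adamts5 promoter (4.43). Timp3 lies within an intron of Syn3, a synapsin gene on the opposite strand, and peaks in Syn3 introns lay at -9.99 kb (4.22, 17.3, 11.7 and 12.3) and +68.61 kb (absent from Cho replicate 1, then 20.9, 13.9 and 14.9). The Syn3 peak at -29.7 kb ran the other way between the Cho replicates, with 28.7 in Cho replicate 1 and 15.8 in Cho replicate 2, and had 6.04 in WT and 11.3 in the deletion. Near Timp2, the strongest distal WT peak was that at -24.07 kb, with 14.3 in WT and 11.1 in the deletion.

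Other strong peaks in the loci belonged to neighbouring promoters. They included the peaks 37.56 kb downstream of Adamts4 in an exon of Usp21 (20.4 in WT) and at -27.76 kb from it (20.1), at -46.27 kb from Timp2 in an exon of Lgals3bp (17.5), 65.47 kb downstream of the Timp2 start (15.2), at -28.89 kb from Mmp9 (12.4) and 33.24 kb downstream of the Mmp14 start in Lrp10 (10.9). In WT, the strongest distal peak of the Mmp14 locus lay 11.77 kb after the start, with 8.02, 10.8, 11.0 and 11.4 over the libraries, and the second strongest of the Mmp2 locus lay at -8.92 kb, with 11.8, 32.8, 10.04 and 16.8. These ranks are those of WT. In the deletion the distal peak at -47.18 kb was the strongest of the Mmp14 locus (14.1), and in Cho replicate 2 the -8.92 kb peak was the strongest of the Mmp2 locus.

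In the 101 bases around the summit, AP-1 occurred in 8 of 78 (10.3%) distal WT peaks of the loci against 16.4% of all distal WT peaks, Runx in 11 (14.1%) against 13.9%, and Sox in 2 (2.56%) against 6.05%. Among the 39 called in all 4 lists the counts were 6, 7 and 0.

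Comparing the deletion with WT asks whether loss of the Sox9 enhancers goes with a change in chromatin at these genes. No promoter among the 8 called in both reached a 2-fold ratio of fold enrichment in either direction, where 1.13% of 13058 promoters did upward and 0.0689% downward. The log2 ratio of the deletion to WT was 0.65 for Mmp13, 0.21 for Adamts5, 0.14 for Timp2, 0.05 for Mmp2, 0.02 for Adamts4, -0.10 for Mmp14, -0.25 for Adamts1 and -0.34 for Timp3. The median was 0.03, against 0.02 over all promoters. For Adamts5, the deletion peak that overlaps the WT peak at the start had 3.96, against 4.43 in WT, so that its log2 ratio was -0.16 and its ratio of pileups over library background 0.816 (0.367 to 1.87). By fold enrichment, Mmp13 stood at percentile 94.5 and Timp3 at percentile 5.0 of the promoter ratios. By pileup over library background, they stood at percentiles 89.0 and 38.6.

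The ratio of pileups over library background, with its 95% exact interval for counting error, included 1 for all 8 promoters. It was 1.15 (0.435 to 3.37) for Mmp13, 1.055 (0.50 to 2.34) for Adamts5, 0.981 (0.597 to 1.64) for Timp2, 0.936 (0.591 to 1.502) for Mmp14, 0.875 (0.515 to 1.51) for Adamts4, 0.794 (0.48 to 1.33) for Timp3, 0.783 (0.454 to 1.37) for Mmp2 and 0.762 (0.487 to 1.20) for Adamts1. Over all promoters, 5.02% of the intervals lay below 1 and 0.0536% above 1. The median log2 of this ratio was -0.258 over all promoters called in both and -0.144 for the members. A typical promoter thus lay below a ratio of 1, and the members lay above the typical promoter by their median. At 7 reads in WT, the Mmp13 interval spans changes of more than 2-fold in both directions, so a change of that size was not detectable at this depth.

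**Figure D5:**
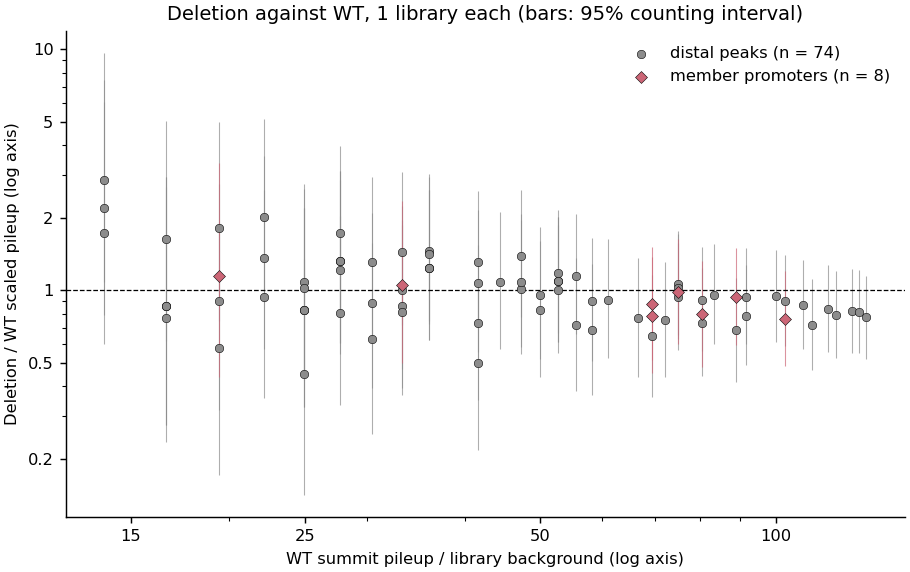
Ratio of the deletion to WT in summit pileup over library background (vertical, log axis) against the WT value (horizontal, log axis), for 8 promoters (diamonds) and 74 distal peaks shared by both libraries (circles). Vertical bars are 95% counting intervals and the dashed line marks a ratio of 1. The intervals of all 8 promoters cross the line and narrow as the WT value rises, and the highest points are distal peaks with low WT values.

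In the loci, the deletion list held 1.71 times as many peaks as WT, and over the genome 1.86 times as many. Cho replicate 2 held 1.68 times as many as Cho replicate 1 in the loci and 1.95 times over the genome. The Cho lists were called against different kinds of background, so their ratio does not measure the spread that applies to WT and the deletion. Of the WT locus peaks, 106 of 111 (95.5%, 89.8 to 98.5) overlapped a deletion peak, against 95.9% of all WT peaks. Of the deletion locus peaks, 101 of 190 (53.2%, 45.8 to 60.4) overlapped a WT peak, against 49.4% of all deletion peaks. For distal peaks alone the shares were 74 of 78 (94.9%, against 95.3% of all) and 72 of 147 (49%, against 46.0%), and 57 of the 147 distal deletion peaks (38.8%) overlapped a Cho replicate 1 peak, against 37.7% of all. The 75 distal deletion peaks without a WT peak had a median pileup of 9 reads, against 28 for the 72 with one.

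The deletion peaks without a WT peak that had the highest fold enrichment lay 50.09 kb after the Mmp14 start (10.2), and 23.14 kb (9.84) and 53.59 kb (7.91) after the Adamts1 start, and each had a counterpart in Cho replicate 2. The strongest WT peaks without a deletion peak lay 54.22 kb after the Mmp2 start in Lpcat2 (6.23), 20.91 kb after the Mmp9 start in Slc12a5 (5.85) and at -22.04 kb from the Adamts5 start (4.41), from pileups of 8, 7 and 5 reads.

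Of the 74 distal peaks shared by both, 5 had a ratio of fold enrichment of at least 2 in the deletion against WT, where 8.2% of all shared distal peaks did, and none had a ratio of 0.5 or less, where 0.0819% did. The median log2 ratio was 0.10, against 0.33 over all shared distal peaks. The 5 lay in the loci of Mmp2 (3, all in introns of Lpcat2, a lysophospholipid acyltransferase gene downstream of Mmp2), Mmp9 (1) and Mmp14 (1). Their ratios of pileups over library background were 2.88, 1.73 and 1.73 (Mmp2), 2.19 (Mmp9) and 1.81 (Mmp14), so not all reached 2 by this measure. The highest, 42.03 kb after the Mmp2 start (chr8:95393225-95393302), had 5 reads and 4.41-fold in WT and 25 reads and 15.3-fold in the deletion. Its ratio of scaled pileups was 2.88 (1.08 to 9.63), the only interval of the 74 that left out 1. Over all shared distal peaks, 1.39% of intervals lay above 1 and 0.723% below. It had a peak of 4.65-fold in Cho replicate 1 and none in Cho replicate 2. The other named peaks at the extremes were 57.23 kb after the Mmp9 start (3.88 to 9.42), at -47.19 kb from the Mmp14 start (5.88 to 14.1), at -17.2 kb from the Adamts4 start in Fcer1g (7.35 to 4.92), and 39.84 kb (6.55 to 4.78) and 76.17 kb (11.4 to 8.61) after the Timp3 start. For the Adamts4 peak and the Timp3 peaks the ratios of scaled pileups were 0.448, 0.72 and 0.499.

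Promoter peaks were also counted for other genes of the pathway, where over all genes 55.3%, 62.7%, 59.0% and 64.7% had one. Of 18 other matrix metalloproteinases, 7, 9, 8 and 10 had a promoter peak, a lower share than over all genes in every list. Of these, 6 had one in all 4, among them Mmp17 (15.2, 17.8, 12.2 and 13.4). Of 16 other Adamts genes, 13 had a promoter peak in every list and Adamts13, Adamts16 and Adamts20 in none. Among them Adamts17 had 25.3, 34.5, 19.7 and 17.1. Of 6 other inhibitors, 4, 6, 5 and 6 had a peak. Timp1 was open in all 4 lists (16.5, 17.7, 11.3 and 9.596), and Timp4 in Cho replicate 2 and the deletion only (6.09 and 4.31). Of 9 activators and further matrix proteases, 8 had a peak in every list, including Plau, the urokinase gene (7.18, 22.2, 17.0 and 15.8), and Htra1 (8.02, 9.30, 7.43 and 8.05). Furin had none.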

How the data were processed

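ATAC-Seq peak lists of 4 mouse chondrocyte libraries (Cho, 2 replicates; WT and deletion, 1 each) were analysed. Per the submitters' processing notes, reads were processed with fastp, Bowtie2 2.4.4, Picard 2.20.7 and SAMtools 1.9 on mm9, and per the study methods MACS2 2.2.4 called peaks at a q-value of 0.05. In the deposited lists, fold enrichment is (summit pileup + 1) over (background + 1), a ratio. The p-value and q-value were deposited as −log10 values, and the deposited score is the −log10 q-value multiplied by 10 and truncated.

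Cho replicate 2 was read in GRCm38 (RefSeq), inferred from its positions against the stated mm9, the other lists in NCBIM37 (GENCODE), and no coordinates were converted. Cho replicate 1 was called with a constant background, and the strongest summit of an interval was kept. Whole pileups were solved from fold enrichment and p-value, for at least 99.9946% of peaks in each list. A check recomputed both from solved WT and deletion pileups and solved them again, which tests the inversion and not the formula. Depth was read from the background pileup and the smallest peak width. Overlaps (1 bp or more) used bedtools 2.31.1, and intervals are exact conditional binomial or Clopper-Pearson. The intervals of shared peaks treat neighbouring peaks as independent. Replicates are not stated to be separate animals. A promoter peak was the strongest summit within 1 kb of the start, a locus was the gene body plus 50 kb on each side, and a distal peak lay over 1 kb from any gene start.

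The members, gene lists and named-peak rule (all members; per locus the 2 strongest non-promoter WT peaks; over all loci the 3 strongest found in WT or the deletion alone and the 3 highest and lowest ratios) were chosen with earlier results of these data known. The strongest distal peaks, peaks of raised local background and distances from shared promoter sequences were added after values were seen. RefSeq promoter sequences matched 6 of 10 members. Promoter sequences come from RefSeq GRCm38.p6 and the others from NCBIM37.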

Additional observations from a re-analysis of the deposited data

How the results depend on the processing

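With the summit pileup over library background in place of fold enrichment, the median log2 ratio of the deletion to WT turned from 0.03 to -0.14 at the promoters and from 0.10 to -0.089 at the shared distal peaks. The medians by pileup were -0.258 over all promoters and 0.034 over all shared distal peaks. With the -log10 q-value the member medians were 0.54 and 0.63. By fold enrichment, the distal median relative to that over all shared distal peaks was -0.22. With the summit nearest to the start the promoter median was -0.04. When each list was cut to the same number of its strongest peaks, the ratio of peak numbers in the loci turned from 1.71 to 0.973 for the deletion to WT and from 1.68 to 0.794 for Cho replicate 2 to Cho replicate 1, and the shared shares became 83.8% of WT peaks and 81.5% of deletion peaks. At a q-value below 1e-05 the Cho ratio was 2.21, and at an overlap of at least 50% the share of deletion peaks was 42.6%. The number of distal WT peaks matched in Cho replicate 2 rose from 39 to 64 with a tolerance of 500 bp and to 60 with distances from a shared promoter sequence, an alternative chosen after seeing the data.

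In pileup over library background, Cho means were 25.5 (Mmp2), 33.7 (Mmp14), 52.6 (Adamts1), 22.02 (Adamts4), 21.3 (Adamts5), 48.5 (Timp2) and 35.5 (Timp3), on another scale than fold enrichment. Leaving out a Cho replicate gave a fold enrichment of 10.1 to 15.8 for Mmp2, 4.65 to 10.1 for Mmp13, 6.14 to 15.2 for Mmp14, 6.22 to 19.8 for Adamts1, 4.23 to 11.4 for Adamts4, 5.80 to 9.71 for Adamts5, 7.18 to 21.2 for Timp2 and 9.27 to 15.2 for Timp3. The number of members with a promoter peak stayed between 7 and 10 of 10 under every window, start and q-value tried. Starts of all annotated transcripts were not run for Cho replicate 2, whose RefSeq table gives 1 start per gene. No paired analysis was possible because each genotype had only 1 library. The cause of these changes was not tested.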
